A study of Arabidopsis thaliana with 22 samples.

Results

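The WRKY family of Arabidopsis thaliana was followed through 22 RNA sequencing libraries of 6 natural accessions. Its members were taken by locus code from a list of 55 WRKY loci. The count table held 53 of them, among 24185 loci in all. WRKY12 (AT2G44745) and WRKY32 (AT4G30935) were not analysed here. WRKY43 (AT2G46130) and WRKY61 (AT1G18860) did not reach 1 CPM (counts scaled to the size of their library) in 2 libraries, and the other 51 members were tested beside 18149 loci.

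WRKY proteins are plant transcription factors named after a conserved WRKY amino acid motif, which lies next to a zinc finger and binds the W box, a short DNA element with a TGAC core. Many are themselves controlled by W boxes and by other WRKY proteins, and several are phosphorylated by mitogen-activated protein (MAP) kinases. In leaves the family is best known for immune responses, salicylic acid signalling and senescence, and single members act in development. Textbook groups, used below, separate members with a pair of WRKY domains (group I) from those with a single domain (groups IIa to IIe and III).

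Total RNA came from seedlings grown for 14 days on soil and harvested whole, 3 h after ultraviolet (UV) light at 312 nm and 4.35 W per square metre, or after a mock treatment. The accessions, all inbred natural strains, were labelled T1080, Mh-0, Lip-0, Got-7, C24 and Ba-1. Each had 2 mock and 2 UV libraries, except that Got-7 had 1 UV library and T1080 had 1 mock library. The study asked how transcripts respond to UV in these accessions. Neither the length of exposure nor whether the libraries of a group came from separate plants is stated in the labels, so p-values reflect only how far these samples spread, and part of that spread may be technical.

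The libraries went against their labels in a way that bears on every comparison. At 56 loci that were each either at 10 CPM or more, or under 0.5 CPM, in every library, libraries of the same labelled group differed at a median of 14 loci and at up to 25. Libraries that share a block, as used below, and a set differed at a median of 0 loci and at up to 2. Across the sets of a block they differed at 9 to 11 loci, and 8 of the 56 loci split by set. The blocks are 6 collections of libraries with matching genotype-dependent loci, and they cut across the labels. They were chosen with these same data known. Agreement within a block therefore follows from how it was formed and is no separate evidence for it. Block 1 held Ba-1 mock 1, Ba-1 UV 1 and Lip-0 mock 1. Block 2 held Ba-1 mock 2, Ba-1 UV 2, Lip-0 mock 2 and Lip-0 UV 1. Block 3 held C24 mock 1 and 2, Lip-0 UV 2 and Mh-0 mock 1. Block 4 held C24 UV 1, Mh-0 mock 2 and Mh-0 UV 1. Block 5 held C24 UV 2, Got-7 mock 1, Mh-0 UV 2 and T1080 mock 1. Block 6 held Got-7 mock 2, Got-7 UV 1, T1080 UV 1 and T1080 UV 2.

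Inside each block the libraries fall on both sides of a split by sample number. The first set, Sample 1 to 11, holds every library labelled Ba-1, C24 or Got-7 (6 mock and 5 UV). The last set, Sample 12 to 22, holds every library labelled Lip-0, Mh-0 or T1080 (5 mock and 6 UV). The sets are not groups of the study and are given no condition here. Taken from the labels, set and accession cannot be told apart. Taken from the blocks, each block has libraries in both sets, and the set difference is measured within blocks and averaged over the 6. Total counts were 3539510 to 20903894 in the first set and 6402500 to 19546141 in the last. For scale, 3 counts, the limit that a count of 0 allows, equal 0.144 to 0.848 CPM in the first set and 0.154 to 0.469 CPM in the last, for counting error only.

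Leaf markers moved with the set. All 4 (RBCS1A, LHCB1.3, LHCB2.1 and CA1) were lower in the last set, with a summed level of 32520 to 37310 CPM in the first set and 17510 to 30980 CPM in the last. Although the tissue was labelled as the whole seedling, 6 root markers (RHD6, COBL9, EXPA7, LRX1, CASP1 and IRT1) summed to 0 to 0.859 CPM in the first set and 0.106 to 0.588 CPM in the last, and RHD6 was at 0 in all libraries. Flower markers (AP1, AP3, PI and AG) summed to at most 1.98 CPM. The part of tissue composition in the results below was not tested, and in such bulk samples fewer cells of a type and less RNA per cell cannot be told apart.

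The set difference ran through most of the family, and mostly upwards. Of the 51 tested members, 34 (66.7%) were higher in the last set, 4 (7.84%) were lower, 11 were not called and 2 had no estimate. WRKY36, WRKY41, WRKY71 and WRKY72 stayed under 1 CPM throughout the first set and passed the filter only through the last. WRKY55, WRKY31 and WRKY75 reached 1 CPM in only 1 library of the first set. For these members the filter favoured a higher last set. Of them, WRKY72, WRKY55, WRKY31 and WRKY75 count among the 34. Among all loci tested, 77.7% were called in either direction, 38.4% higher and 39.3% lower, so a call by itself is common in these data. A fitted difference of at least 2 on the log2 scale (4-fold) upwards was reached by 20 members (39.2%) and by 7.89% of all loci. The 20 include WRKY72 and WRKY31, with block sides at 0 counts in the first set. With those sides put at 3 counts, their differences were 1.81 and 1.54, below that limit. The median log2 set difference was 1.50 over the 49 members with an estimate and -0.01 over all loci, and the members ranged from -0.90 to 8.63. All values of the last set lay above all values of the first for 19 members (37.3%), against 13.4% of loci, and below them for 1 member, WRKY3 (1.96%), against 10.8% of loci.

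**Figure D1:**
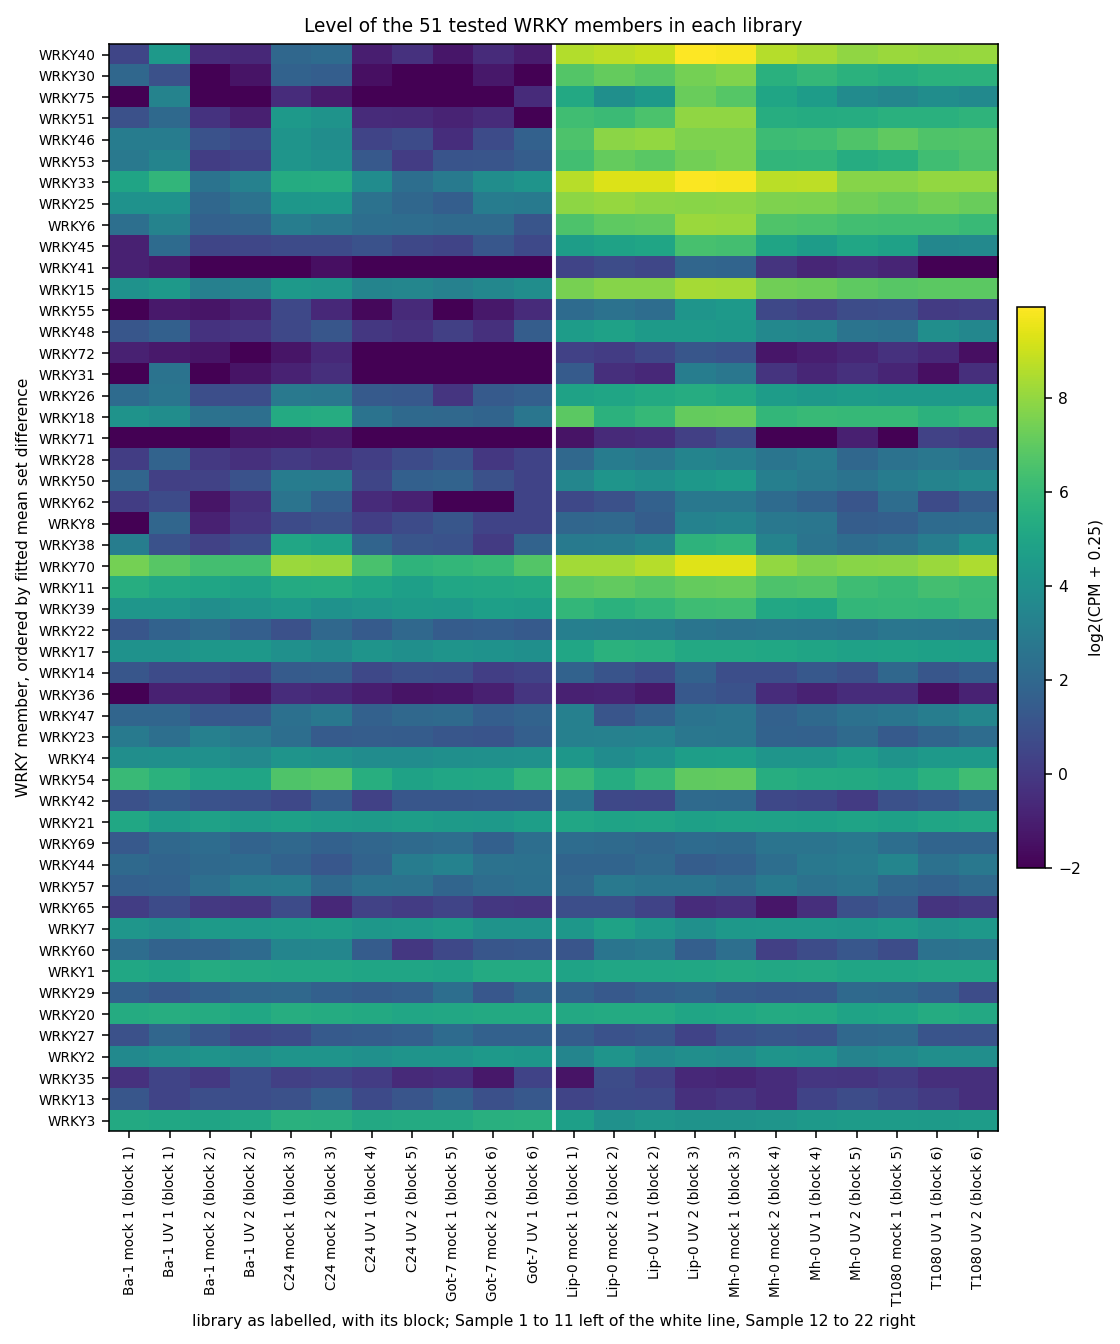
Level of each tested WRKY member (rows, ordered by fitted set difference) in each library (columns, grouped by set and block), as log2(CPM + 0.25). The rows at the top change from dark to light at the white line between Sample 1 to 11 and Sample 12 to 22, while rows such as WRKY1 and WRKY20 keep 1 shade across all 22 libraries.

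**Figure D2:**
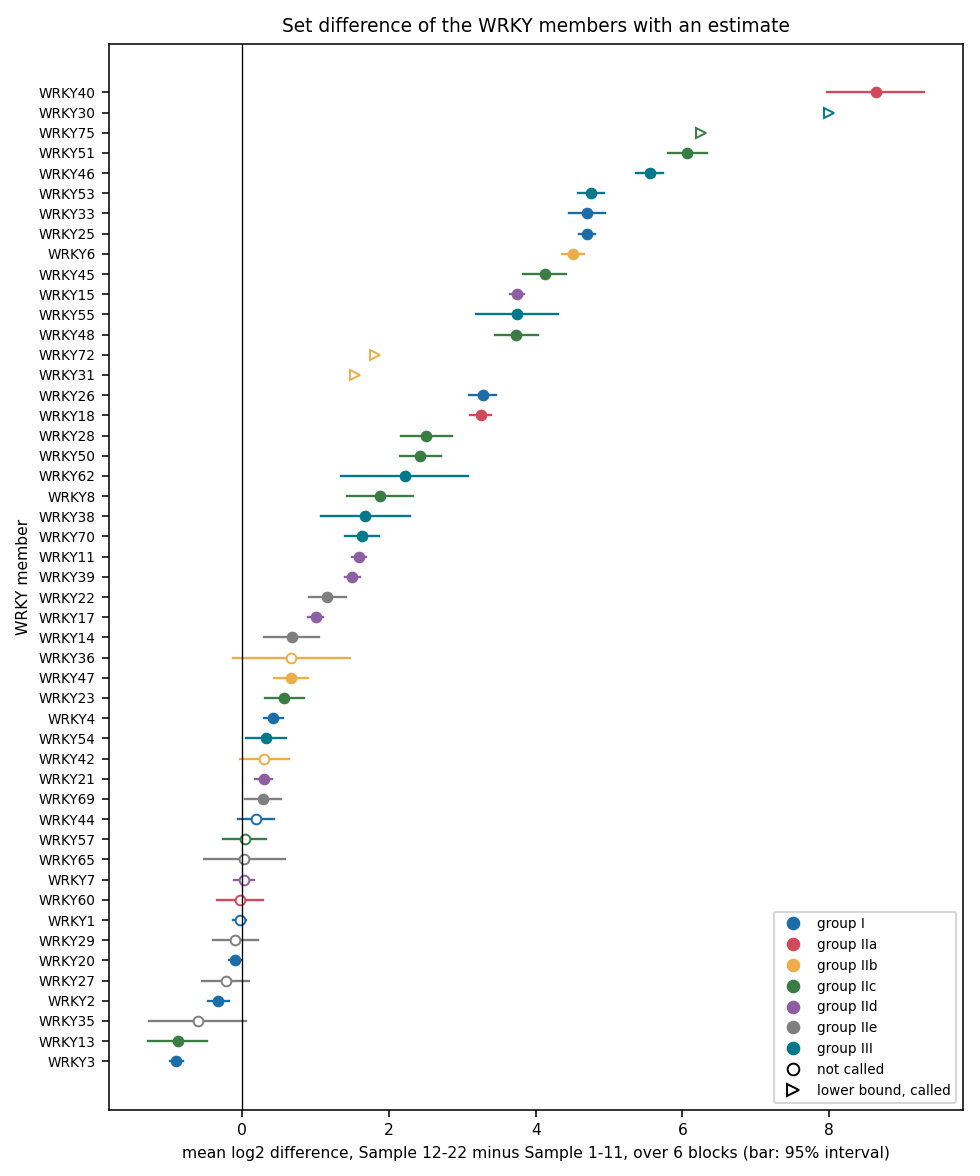
Mean log2 set difference of the 49 members with an estimate, with 95% intervals, coloured by WRKY group. Open circles mark members that were not called, and open triangles mark lower bounds for 4 called members with a block at 0 counts in the first set; the values run from 8.63 for WRKY40 down to -0.90 for WRKY3.

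Promoters of members from both ends of this ranking are shown because the W box is the element through which WRKY proteins act on one another's genes. The 250 bases before the annotated start of each gene were read from RefSeq TAIR10.1, which matched all 55 members. W boxes, searched as TTGACC and TTGACT on both strands, are in capitals (GGTCAA and AGTCAA are the same letters read on the other strand). WRKY30, WRKY53 and WRKY33 are higher in the last set and hold W boxes. WRKY40, with the largest difference, and WRKY3, the most lowered, hold none of these letters in the window.
WRKY30, AT5G24110, chr5:8154711-8154960, minus strand: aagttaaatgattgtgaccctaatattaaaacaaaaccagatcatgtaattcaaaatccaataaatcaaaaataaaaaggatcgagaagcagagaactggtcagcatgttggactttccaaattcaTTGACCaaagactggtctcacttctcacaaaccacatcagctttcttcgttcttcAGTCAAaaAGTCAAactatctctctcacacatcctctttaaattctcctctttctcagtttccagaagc
WRKY53, AT4G23810, chr4:12393983-12394232, minus strand: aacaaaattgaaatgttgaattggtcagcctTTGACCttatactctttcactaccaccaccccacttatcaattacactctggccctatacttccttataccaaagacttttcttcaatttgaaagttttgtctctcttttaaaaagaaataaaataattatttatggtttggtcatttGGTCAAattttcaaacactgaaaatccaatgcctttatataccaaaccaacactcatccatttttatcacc
WRKY33, AT2G38470, chr2:16107985-16108234, plus strand: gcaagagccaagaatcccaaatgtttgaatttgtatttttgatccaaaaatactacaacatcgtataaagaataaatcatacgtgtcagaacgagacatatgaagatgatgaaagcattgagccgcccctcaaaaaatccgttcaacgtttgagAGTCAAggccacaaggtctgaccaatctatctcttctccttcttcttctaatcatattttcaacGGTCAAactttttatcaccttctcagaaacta
WRKY40, AT1G80840, chr1:30383311-30383560, plus strand: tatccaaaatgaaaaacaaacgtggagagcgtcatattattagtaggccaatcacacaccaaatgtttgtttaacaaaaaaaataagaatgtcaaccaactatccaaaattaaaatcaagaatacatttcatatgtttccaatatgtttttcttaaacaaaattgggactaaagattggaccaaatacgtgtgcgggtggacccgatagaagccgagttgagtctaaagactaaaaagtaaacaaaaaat
WRKY3, AT2G03340, chr2:1017223-1017472, minus strand: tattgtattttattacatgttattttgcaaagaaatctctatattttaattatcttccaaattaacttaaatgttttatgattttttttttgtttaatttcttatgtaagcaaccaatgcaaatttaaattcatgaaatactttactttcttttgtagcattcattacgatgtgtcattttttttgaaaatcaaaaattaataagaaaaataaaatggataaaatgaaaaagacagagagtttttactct

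WRKY30 had 3 W boxes, the nearest 61 bases before the start, and a pair of them stand 2 letters apart. WRKY53 had 2, the nearest at 71 bases, and WRKY33 had 2, the nearest at 32 bases. At least 1 W box was present in 14 of the 34 raised members (41.2%), 2 of the 11 members not called, 1 of the 4 lowered members and 28.4% of 18050 tested loci with an annotated start. At least 2 were present in 7 raised members (20.6%) and in 6.23% of those loci. Over all 51 tested members, whatever their call, the shares were 35.3% with at least 1 and 17.65% with at least 2. WRKY51, WRKY46 and WRKY6, each more than 4 higher on the log2 scale in the last set, had 0 of the searched forms TTGACC and TTGACT. The shorter TGAC core by itself was not counted. These are counts of letters in a window and do not mark sites in use.

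The group IIa members WRKY18, WRKY40 and WRKY60 encode proteins that pair with one another and act on immune and abscisic acid responses, mostly as repressors. They did not move together. WRKY40 (AT1G80840) had a lowest level of 0.160 CPM in the first set, a median of 0.448 and a highest of 22.0, and 250, 374 and 986 CPM in the last. Its libraries did not overlap between the sets, and its mean log2 difference was 8.63 ± 0.30 (SE; edgeR quasi-likelihood adjusted p = 1.33e-10). Its first-set median lay within the 0.144 to 0.848 CPM that 3 counts equal in that set. The size of its difference therefore rests on few counts. WRKY18 (AT4G31800) had 3.32, 5.59 and 41.3 CPM in the first set and 50.3, 63.2 and 146 CPM in the last. It too was separate, with a difference of 3.25 ± 0.07 (adjusted p = 1.38e-21). WRKY60 (AT2G25000) had 0.693, 3.20 and 11.0 CPM in the first set and 0.940, 2.81 and 6.91 CPM in the last. Its sets overlapped throughout, and its mean difference of -0.03 (95% interval -0.35 to 0.28) was not called, although its blocks differed, as given below.

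Group I holds WRKY33 and WRKY25, which are linked to the MAP kinase MPK4 through the protein MKS1. WRKY33 (AT2G38470), needed for camalexin synthesis and resistance to necrotrophic fungi, had 4.71, 14.4 and 57.5 CPM in the first set (lowest, median and highest) and 216, 424 and 953 CPM in the last. WRKY25 (AT2G30250), also known from heat tolerance, had 2.72, 7.39 and 20.6 CPM in the first set and 143, 200 and 263 CPM in the last. Neither overlapped between the sets, and both had a log2 difference of 4.70, with an SE of 0.11 for WRKY33 (adjusted p = 1.7e-12) and 0.05 for WRKY25 (adjusted p = 6.74e-30). WRKY26 (AT5G07100), which acts with that pair in heat tolerance, was higher by 3.28 ± 0.09.

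The rest of group I was nearly level or lower in the last set. WRKY4 (AT1G13960), which acts in resistance to necrotrophs together with WRKY3, was higher by 0.43 ± 0.06. WRKY3 (AT2G03340) had 31.7, 39.1 and 48.2 CPM in the first set and 16.4, 21.5 and 26.6 CPM in the last, and was the only member with every library of the last set below every library of the first. Its difference was -0.90 ± 0.04 (adjusted p = 3.22e-16), and it was called lower in each of the 6 blocks. WRKY2 (AT5G56270), known from pollen and embryo development, differed by -0.33 ± 0.07 (adjusted p = 8.66e-05), with overlapping sets. WRKY20 (AT4G26640) differed by -0.10 ± 0.04 (adjusted p = 0.0265), a call that was easily lost. It was lost under total-count scaling (-0.06, adjusted p = 0.175), with RLE scaling (-0.07, adjusted p = 0.102) and with DESeq2. The additive fit of block and set (adjusted p = 0.0828) and the fit without blocks (adjusted p = 0.157) lost it too. So did leaving out the filter or any of many single libraries. WRKY1 (AT2G04880) had 30.4, 35.1 and 40.1 CPM in the first set and 30.1, 33.9 and 37.4 CPM in the last. Its difference of -0.04 had a 95% interval of -0.12 to 0.05, the narrowest of the 11 members not called. WRKY44 (AT2G37260), known as TTG2 for its role in trichomes and the seed coat, was not called (0.18, interval -0.06 to 0.43).

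In group III, which is tied to salicylic acid signalling and senescence, 8 of 9 tested members were higher in the last set and the other 1, WRKY41, had no estimate. WRKY46 (AT2G46400), which acts with WRKY53 and WRKY70 in basal defence, had 0.479, 1.74 and 18.2 CPM in the first set and 73.1, 105 and 256 CPM in the last. WRKY53 (AT4G23810), a regulator of leaf senescence, had 0.832, 2.29 and 18.7 CPM in the first set and 42.5, 79.0 and 191 CPM in the last. Both were separate between the sets, by 5.55 ± 0.09 (adjusted p = 4.4e-20) and 4.76 ± 0.09 (adjusted p = 1.54e-20) on the log2 scale. WRKY30 (AT5G24110), known from oxidative stress, was at 0 in 4 libraries of the first set, with a median of 0.136 and a highest value of 3.73 CPM, and at 43.4, 62.3 and 205 CPM in the last. Because block 5 had 0 counts in the first set, the difference of WRKY30 is given with that side of block 5 at 3 counts. Its mean over blocks was then 7.99 on the log2 scale, a bound for that side only.

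WRKY70 (AT3G56400), a node between salicylic acid and jasmonate signalling, was already at 54.6, 92.3 and 282 CPM in the first set and reached 198, 310 and 666 CPM in the last. Its sets overlapped through C24 mock 1 and 2, and its difference was 1.63 ± 0.11 (adjusted p = 4.99e-08). WRKY54 (AT2G40750), which acts with WRKY70 against early senescence, had 29.4, 44.2 and 110 CPM in the first set and 33.2, 47.8 and 137 CPM in the last. The call of its small difference (0.32 ± 0.12, adjusted p = 0.0349) was lost when blocks were left out of the fit, with the value at 0.29 (adjusted p = 0.401). It was also lost with the labelled groups as cells (0.224, adjusted p = 0.42) and when any of several single libraries was left out. Its neighbour WRKY55 (AT2G40740) lies on the same chromosome with 919 bases between the genes (chr2:16997078-17002528 for both, TAIR10.1) and differed by 3.75 ± 0.27, from a median of 0.187 CPM in the first set to 1.59 CPM in the last. WRKY38 (AT5G22570) and WRKY62 (AT5G01900), which repress basal defence, differed by 1.68 ± 0.28 and 2.21 ± 0.41, and the call of WRKY38 was lost without blocks (adjusted p = 0.156). WRKY41 (AT4G11070) was at 0 in 8 libraries of the first set and in 2 of the last, where its highest value was 3.59 CPM. It had 0 counts on both sides of block 6, which left the main model with no estimate. A limma voom fit gave 2.95, but WRKY41 had passed the filter only through the last set.

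**Figure D3:**
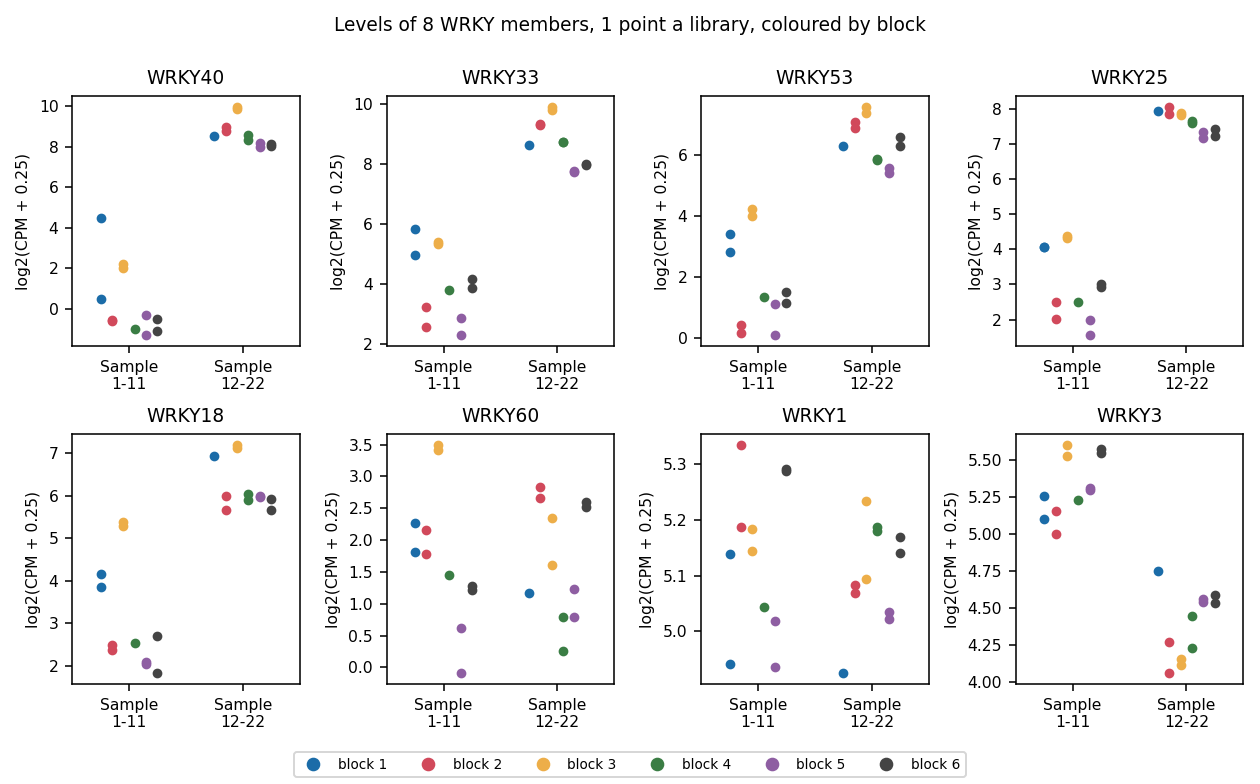
Levels of 8 WRKY members as log2(CPM + 0.25), 1 point a library, by set and coloured by block. WRKY40, WRKY33, WRKY53, WRKY25 and WRKY18 do not overlap between the sets, WRKY60 and WRKY1 do, and WRKY3 is lower in every library of Sample 12 to 22; the vertical scale differs between panels.

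Group IIc gave 8 raised members of 11 tested, 1 lowered, 1 not called and 1 with no estimate. WRKY75 (AT5G13080), which acts in phosphate starvation and senescence, was at 0 in 7 libraries of the first set and at 9.90 CPM in Ba-1 UV 1, and had 11.0, 20.8 and 149 CPM in the last set. Its mean over blocks was 6.25 on the log2 scale, with the 3 blocks at 0 counts in the first set put at 3 counts. A fit without blocks, which compares the sets as wholes, gave 5.10. WRKY51 (AT5G64810), which with WRKY50 represses jasmonate signalling when oleic acid is low, had 0, 0.449 and 21.8 CPM in the first set and 41.01, 53.9 and 247 CPM in the last. It did not overlap between the sets (6.07 ± 0.13, adjusted p = 9.08e-17). WRKY50 (AT5G26170) was higher by 2.43 ± 0.13 and did overlap.

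WRKY45 (AT3G01970), an activator of a phosphate transporter, was higher by 4.12 ± 0.14, and WRKY48 (AT5G49520), a repressor of basal defence, by 3.73 ± 0.14. WRKY28 (AT4G18170), which acts on the salicylic acid synthesis gene ICS1, was higher by 2.51 ± 0.17. WRKY8 (AT5G46350), known from virus defence and salt tolerance, was higher by 1.88 ± 0.21, and by 3.16 without Ba-1 UV 1. WRKY23 (AT2G47260), which acts in auxin responses, was higher by 0.57 ± 0.13. Its call was lost when the labelled groups served as cells of the model (0.38, adjusted p = 0.0746) and without blocks (0.396, adjusted p = 0.2725). WRKY13 (AT4G39410), which promotes lignin formation in the stem, fell from 1.12, 1.71 and 2.88 CPM in the first set to 0.470, 1.08 and 1.46 CPM in the last, with some overlap (-0.88 ± 0.20, adjusted p = 0.000239). WRKY57 (AT1G69310), known from drought tolerance, was not called (0.03, 95% interval -0.26 to 0.33). WRKY71 (AT1G29860), a regulator of shoot branching, stayed at or below 1.46 CPM and had no estimate in the main model. A limma voom fit gave 1.88, but WRKY71 had passed the filter only through the last set.

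Of the 6 tested members of group IIb, 4 were higher in the last set. WRKY6 (AT1G62300), a senescence factor that also represses the phosphate exporter gene PHO1, had 1.96, 4.57 and 10.0 CPM in the first set and 67.9, 96.1 and 285 CPM in the last (4.51 ± 0.07, adjusted p = 9.18e-22). WRKY42 (AT4G04450), which shares the PHO1 role, was not called (0.30, interval -0.04 to 0.63). WRKY72 (AT5G15130) and WRKY31 (AT4G22070) were low, with medians of 0 CPM in the first set and 0.569 and 0.524 CPM in the last, and had means over blocks of at least 1.81 and 1.54 on the log2 scale. WRKY31 reached 5.61 CPM in Ba-1 UV 1 of the first set, and its call was lost without blocks (1.47, adjusted p = 0.176). WRKY47 (AT4G01720) was higher by 0.67 ± 0.11. WRKY36 (AT1G69810) was not called (0.67, interval -0.13 to 1.46), but it was called without Ba-1 UV 1 (1.36, adjusted p = 0.0447), in the additive fit of block and set (1.00, adjusted p = 0.0121) and without blocks (1.15, adjusted p = 0.0454).

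Group IId encodes calmodulin-binding members, and 5 of its 6 were higher in the last set. WRKY15 (AT2G23320), which acts in growth and in signalling from mitochondria, had 8.86, 11.2 and 21.7 CPM in the first set and 115, 161 and 327 CPM in the last. Its libraries were separate, with the difference at 3.75 ± 0.05 (adjusted p = 2.63e-29). WRKY11 (AT4G31550) and WRKY17 (AT2G24570), negative regulators of resistance to bacteria, were higher by 1.59 ± 0.05 and 1.00 ± 0.05, also with no overlap. WRKY39 (AT3G04670), known from heat responses, was higher by 1.50 ± 0.05 and WRKY21 (AT2G30590) by 0.29 ± 0.06. WRKY7 (AT4G24240), a further negative regulator of bacterial resistance, had 16.3, 21.0 and 25.1 CPM in the first set and 15.8, 20.8 and 28.9 CPM in the last. Its difference of 0.03 had a 95% interval of -0.11 to 0.16.

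Group IIe had the lowest group median, a log2 difference of 0.03 over its 7 members against 2.98 in group III. WRKY22 (AT4G01250), placed after the flagellin-activated MAP kinases, had 1.71, 2.69 and 4.07 CPM in the first set and 5.01, 5.97 and 8.53 CPM in the last and was separate (1.16 ± 0.12, adjusted p = 1.48e-09). WRKY29 (AT4G23550), placed at the same step, was not called (-0.10, interval -0.40 to 0.21). WRKY14 (AT1G30650) was higher by 0.67 ± 0.18 and WRKY69 (AT3G58710) by 0.29 ± 0.12, the latter not called by DESeq2 (adjusted p = 0.109). The call of WRKY69 was also lost without blocks (adjusted p = 0.0715) and with the labelled groups as cells (adjusted p = 0.149). It was lost as well when any of several single libraries was left out. WRKY27 (AT5G52830), known from bacterial wilt, WRKY35 (AT2G34830) and WRKY65 (AT1G29280) were not called, with differences of -0.23, -0.61 and 0.03. Of the 11 members not called in the whole family, 9 had a 95% interval within 1 of 0 on the log2 scale, and the other 2 were WRKY36 and WRKY35.

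By block, members called higher numbered 24, 28, 32, 29, 26 and 33 of 51 in blocks 1 to 6, against 24.6%, 28.1%, 34.4%, 27.2%, 27% and 27.7% of all loci. Members called lower numbered 1, 1, 7, 2, 2 and 3, against 22.3%, 29.1%, 34.3%, 26.4%, 26.8% and 27.4% of all loci. In all 6 blocks, 21 of 51 members were called higher, as were 16.6% of all loci. The median member difference was 1.03, 1.72, 1.38, 0.87, 0.90 and 1.33 on the log2 scale. Block 1 has 1 library in the last set and block 4 has 1 in the first, and the lone library is assumed to vary like the others.

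The size of the set difference varied between blocks for 24 members (47.1%), where the same F test called 33.5% of all loci. Among the 6 with the smallest p, block 1 or block 3 had the lowest difference in all 6. WRKY25 differed by 3.88, 5.73, 3.51, 5.16, 5.54 and 4.37 in blocks 1 to 6, with SEs of 0.10 to 0.15 (between blocks, adjusted p = 1.63e-09). WRKY46 differed by 3.64, 7.29, 3.65, 6.10, 6.89 and 5.74 (adjusted p = 4.55e-07). Blocks 1 and 3 stood below the other 4 in both. WRKY53 differed by 3.07, 7.00, 3.40, 4.67, 5.06 and 5.34 (adjusted p = 1.29e-06). WRKY18 differed by 3.00, 3.47, 1.83, 3.49, 4.01 and 3.70 (adjusted p = 6.08e-07). WRKY15 varied less, at 3.17, 4.52, 3.99, 3.93, 3.57 and 3.31 (adjusted p = 4.5e-06).

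The first-set libraries of blocks 1 and 3 were the high ones. In block 3, WRKY46 reached 18.2 CPM in C24 mock 1 and 14.0 CPM in C24 mock 2. Both block 1 libraries were close, Ba-1 mock 1 at 7.75 CPM and Ba-1 UV 1 at 7.85 CPM, against 0.479 to 3.04 CPM in the other 7 libraries of the first set. WRKY18 reached 38.7 CPM in C24 mock 1 and 41.3 CPM in C24 mock 2, with 17.5 and 14.2 CPM in the block 1 libraries and 3.32 to 6.30 CPM in the other 7. Over the 34 raised members, the highest library of the first set was C24 mock 1 for 10, C24 mock 2 for 6 and Ba-1 UV 1 for 10. In the last set it was Mh-0 mock 1 for 14 and Lip-0 UV 2 for 10, which are the block 3 libraries of that set. The median level of the 34 raised members was 7.31 CPM in C24 mock 1, 6.50 CPM in C24 mock 2, 5.79 and 4.02 CPM in Ba-1 UV 1 and Ba-1 mock 1, and 1.63 to 2.72 CPM in the other first-set libraries.

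The pair of first-set libraries in block 1 did not match each other at all members. WRKY40 had 22.0 CPM in Ba-1 UV 1 against 1.15 CPM in Ba-1 mock 1, WRKY75 at 9.90 and 0 CPM, and WRKY31 at 5.61 and 0 CPM. WRKY25 was at 16.5 and 16.6 CPM in the same libraries. The 2 differ in labelled treatment as well as being single libraries, and this difference has no replicate check.

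WRKY60 was the only member called higher in some blocks and lower in others. It differed by -1.54 ± 0.24 in block 3 (adjusted p = 2.99e-06) and by -0.90 ± 0.36 in block 4 (adjusted p = 0.0371). It differed by 0.80 ± 0.27 in block 2 (adjusted p = 0.0132) and by 1.42 ± 0.31 in block 6 (adjusted p = 0.000299). Blocks 1 (-0.87 ± 0.45) and 5 (0.90 ± 0.46) were not called, and the blocks differed with an adjusted p of 7.93e-06. In block 3 its level was 10.4 CPM in C24 mock 1, 11.0 CPM in C24 mock 2, while Lip-0 UV 2 had 2.81 CPM and Mh-0 mock 1 had 4.83 CPM. In block 6 it was 2.06 and 2.17 CPM in Got-7 mock 2 and UV 1 and 5.47 and 5.78 CPM in T1080 UV 1 and 2. Without blocks 1 and 4 its mean difference turned to 0.41 (adjusted p = 0.0242).

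**Figure D4:**
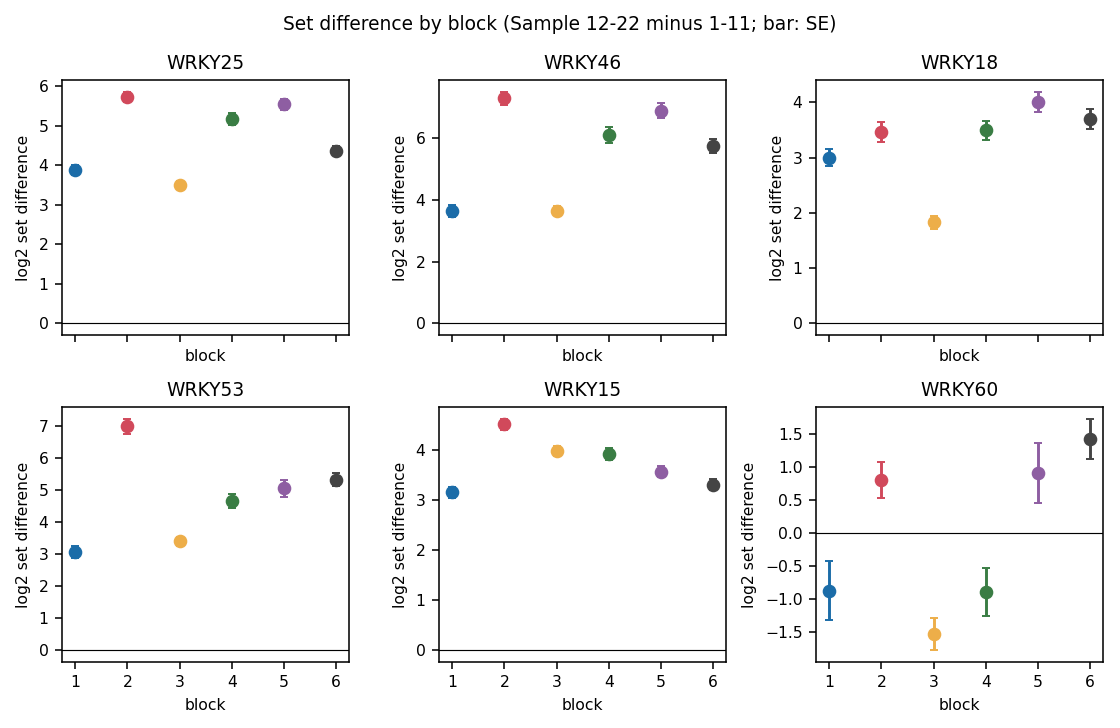
Log2 set difference in each of the 6 blocks, with its SE, for the 6 members with the smallest p between blocks. WRKY25, WRKY46, WRKY18 and WRKY53 are above 0 in every block. WRKY25 and WRKY18 are lowest in block 3 (1.83 for WRKY18) and WRKY53 in block 1, while WRKY46 is about equally low in both. WRKY60 runs from -1.54 in block 3 to 1.42 in block 6.

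Both lists of genes that act with the family, chosen with earlier results known, are read against the 38.4% of all loci that were higher in the last set. All 13 genes of a list of MAP kinases and partner proteins rose, with a median log2 difference of 1.19. They include MKK4 (2.28 ± 0.04), an activator of MPK3 and MPK6, MPK3 itself (1.45 ± 0.03), SIB1 (2.66 ± 0.04), a partner of WRKY33, and MKS1 (2.06 ± 0.09). The smallest was HDA19 (0.10 ± 0.03), a histone deacetylase that binds WRKY38 and WRKY62. Of 19 genes on which WRKY factors are known to act, 17 were tested, 15 were higher, 1 was lower and 1 was not called, with a median of 4.31.

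The camalexin gene CYP71B15, a target of WRKY33, was higher by 8.83 ± 0.63 and the ethylene synthesis gene ACS6, a further target, by 4.31 ± 0.11. ICS1, the salicylic acid synthesis gene, was higher by 4.55 ± 0.09 and the flagellin-induced kinase gene FRK1 by 5.28 ± 0.25. PHO1, repressed by WRKY6 and WRKY42, was the lowered gene (-0.77 ± 0.07, adjusted p = 3.4e-11). UPOX (5.77 ± 0.06), AOX1A (4.83 ± 0.08), DIC2 (3.69 ± 0.11) and ABI5 (1.45 ± 0.15) were also higher. The list does not separate genes that WRKY factors activate from genes that they repress. Whether a target moved with its regulator was not tested. PR1, a late marker of salicylic acid, was not called (-0.88 ± 0.99, adjusted p = 0.438).

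By the labels, no WRKY member responded to UV at the threshold. The mean labelled UV effect called 0 of 51 members and 0% of loci (edgeR). An unadjusted p under 0.05 was found for 504 loci (2.78%) and 2 members, both lower in UV: WRKY50 (-0.73 ± 0.28, unadjusted p = 0.0214) and WRKY7 (-0.23 ± 0.10, unadjusted p = 0.0428). The third smallest p was that of WRKY51 (-1.62 ± 0.89, unadjusted p = 0.0945). Their adjusted p was 1. The common biological coefficient of variation was 26.7% for the labelled groups, where libraries of different blocks are treated as replicates, and 6.94% within blocks and sets. The blocks were formed from these same data, so the lower value is no separate check of them.

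Within single accessions the labelled UV effect called 0 members in each. It called 0% of loci in Ba-1, Got-7, Lip-0 and Mh-0, 0.27% in C24 and 0.00551% in T1080. At an unadjusted p under 0.05, C24 had 17 members lower and 1 higher in UV, against 8.98% of all loci lower and 6.11% higher. At the same threshold Mh-0 had 8 members lower, against 5.57% of all loci. The smallest adjusted p in C24 was that of WRKY51, whose mock libraries had 21.8 and 17.4 CPM and whose UV libraries had 0.449 and 0.416 CPM (-5.44 ± 1.06, adjusted p = 0.0559). The C24 mock libraries both belong to block 3 and the C24 UV libraries to blocks 4 and 5, so that labelled treatment and block cannot be told apart there. DESeq2 called 11 members and 3.52% of all loci in C24, and a fit to the C24 libraries alone called 15 members and 10.5% of the loci it tested.

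**Figure D5:**
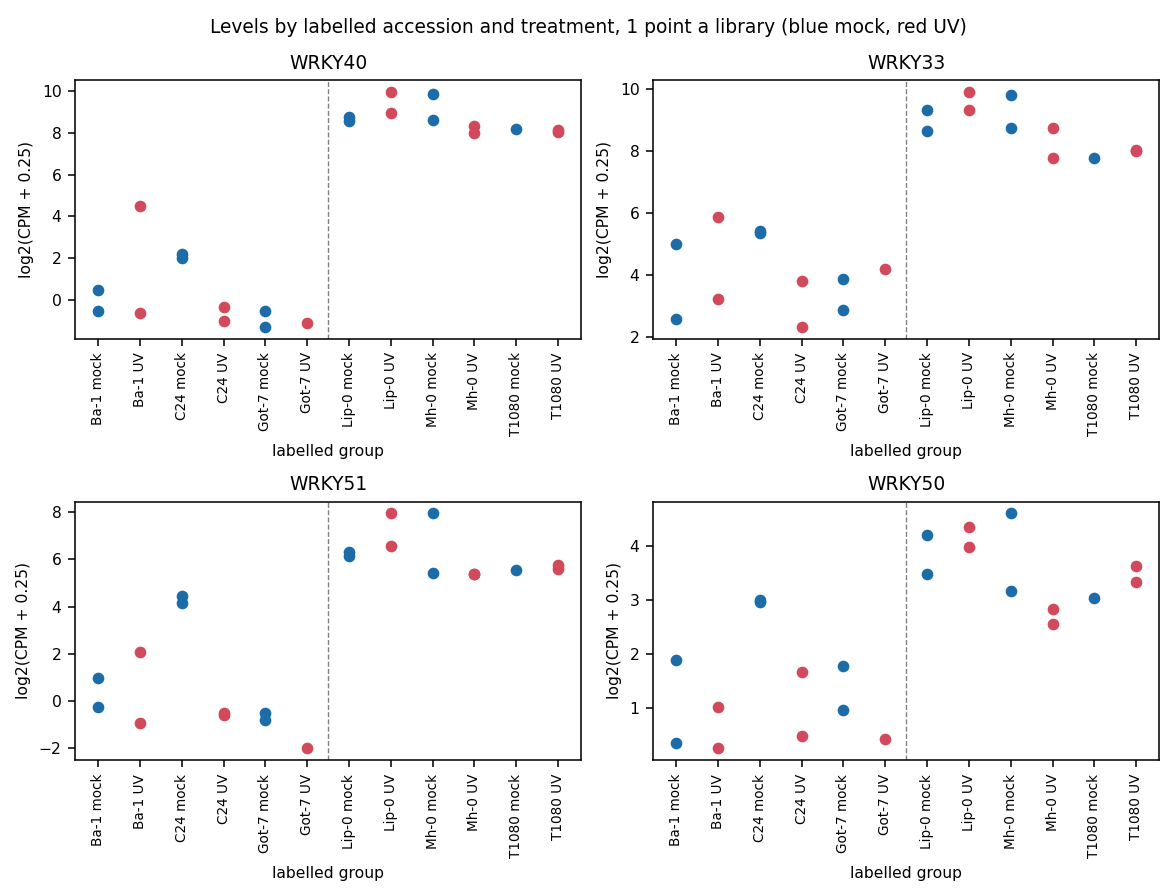
Levels of WRKY40, WRKY33, WRKY51 and WRKY50 as log2(CPM + 0.25) in the 12 labelled groups, 1 point a library, blue for mock and red for UV. For WRKY40, WRKY33 and WRKY51 every library right of the dashed line (Lip-0, Mh-0 and T1080) is above every library left of it, with mock and UV on both sides; WRKY50 overlaps.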

How the data were processed

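RNA was sequenced from 22 seedling libraries, and the authors deposited raw counts for each locus, as whole numbers. TopHat and FastQC, and the builds TAIR10 and TAIR9, are listed without roles, per the submitters' processing notes. The read counter, its annotation and its use of strand were not given in the sources used here, so reads of a member and of an overlapping antisense gene cannot be told apart.

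From the counts, CPM were computed with TMM factors in R 4.3.3 with edgeR 4.0.16, and the filter kept loci that reached 1 CPM in 2 libraries or more. The robust quasi-likelihood test was fitted to 12 means (6 blocks by 2 sets), with contrasts for the set difference averaged over blocks, in each block and between blocks (F test). A second model used the 12 labelled groups. Benjamini-Hochberg adjustment ran over all 18149 loci within each contrast, and an adjusted p under 0.05 was called. Each SE was worked back from the test, as the absolute log2 difference divided by the square root of its F value. The 95% intervals were built on these SEs. A block side of 0 counts was set to 3 counts for bounds, which leave out the error of the other block sides. The procedure was run on simulated data with a fixed spread, no block differences and changes only at well-counted loci. That run does not cover changes at low counts, or blocks chosen from the data.

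Alternatives used limma 3.58.1 (voom), DESeq2 1.42.0, other scalings, filters, designs and each library left out. Members, lists, blocks and sets were chosen with earlier results of these data known. The text names up to 8 raised and 8 lowered members with the largest difference, members not called with the smallest difference at a mean of 5 CPM or more, 6 with the smallest p between blocks and 3 with the smallest p for the labelled UV effect; the remaining members follow for completeness. Replicate numbers matched the blocks in Ba-1 and were not treated as pairs across the accessions. Symbols came from RefSeq TAIR10.1, which matched 23847 loci.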

Additional observations from a re-analysis of the deposited data

Results flagged for a closer look

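A difference of the set difference between blocks, tested with edgeR's F test and adjusted over all loci, was found for 24 members. The smallest adjusted p-values were those of WRKY25 (1.63e-09), WRKY46 (4.55e-07), WRKY18 (6.08e-07), WRKY53 (1.29e-06), WRKY15 (4.5e-06) and WRKY60 (7.93e-06). WRKY51 (6.3e-05), WRKY39 (0.000105), WRKY11 (0.000128), WRKY6 (0.00024), WRKY26 (0.000345), WRKY33 (0.000577), WRKY3 (0.000713) and WRKY28 (0.000863) followed. Between 0.001 and 0.05 lay WRKY50 (0.0013), WRKY47 (0.00169), WRKY45 (0.0024), WRKY30 (0.0106), WRKY40 (0.0112), WRKY17 (0.0124), WRKY42 (0.0167), WRKY2 (0.0227), WRKY8 (0.0358) and WRKY75 (0.0463). In the first set WRKY30 has 1 block and WRKY75 has 3 blocks at 0 counts, so the fitted sizes of their differences in those blocks depend on the prior count. Their p-values come from the F test and not from these sizes.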

How the results depend on the processing

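Members higher in the last set numbered 31 to 37 over all alternatives, against 34. Of the 34, 29 remained without blocks, 31 with the labelled groups as cells and 32 to 34 under every other alternative. Members called between blocks numbered 20 to 28, against 24. The mean set difference of WRKY60 reversed without blocks 1 and 4 (0.412, adjusted p = 0.0242), an alternative chosen after seeing the data; 0 called members changed sign. Members lowered moved in block 1 from 1 to 0 with DESeq2 and to 1 to 3 with 1 library left out, in block 3 from 7 to 3 with DESeq2 and to 4 to 7, in block 4 from 2 to 1 with DESeq2 and total-count scaling and to 1 to 3, and in block 6 from 3 to 1 with DESeq2. Members called for the labelled UV effect in C24 moved from 0 to 2 with total-count scaling, 11 with DESeq2, 15 in the C24 libraries alone, 11 with a replicate block and 0 to 5 with 1 library left out (5 without Mh-0 mock 1 or 2). T1080 moved from 0 to 9 in its own libraries (20.1% of loci called), where 1 mock library of block 5 meets 2 UV libraries of block 6 and treatment and block cannot be told apart. Ba-1 moved to 0 to 1 (without Ba-1 UV 2) and Mh-0 to 0 to 2 (without Mh-0 mock 2). The cause was not tested. In C24 the share of all loci called was 0.777% with total-count scaling, 3.52% with DESeq2 and 1.89% with a replicate block. In the C24 libraries alone it was 10.5% of the loci tested there. Shares of all loci are not given for the other member counts of this section except that of T1080. Those counts show only how far the calls moved. Same-numbered libraries deviated together in Ba-1 (r = 0.597), where the numbers match blocks 1 and 2, and not in C24 (-0.000713), Lip-0 (-0.336) or Mh-0 (-0.281). Depth limits WRKY41, WRKY71, WRKY72 and WRKY31, which are near the level of a few counts in most libraries. It also limits the sizes given for WRKY40, WRKY51, WRKY30, WRKY75 and WRKY55. Their first-set medians were 0.448, 0.449, 0.136, 0 and 0.187 CPM.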
